A study of Mus musculus with 12 samples.

Results

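LIF withdrawal was examined in mouse embryonic stem cells that were also exposed to lithium, on 6 of the 12 arrays of the series. The cells were of the D3 line, 1 established mouse embryonic stem cell line, and every group was kept for 7 days in standard medium with 15% serum. In the group called LIF plus lithium here, 3 arrays came from cells given LIF at 1000 units/ml and lithium at 50 nM. In the LIF-free plus lithium group, 3 arrays came from cells given the same lithium and no LIF. Both groups therefore carry lithium, and the other 6 arrays, 3 with LIF and 3 without LIF, had none. The labels give the concentration as 50 nM, which is used here as written although lithium is usually applied to cells at millimolar concentrations, so the dose actually given is uncertain. The members were chosen by these labels alone, and all 6 arrays were used. The labels call the arrays biological replicates and the series text speaks of 3 independent experiments per replicate. Neither states whether the replicates were separate cultures, so the p-values measure only the spread between these arrays, which may be partly technical. Whether feeder cells were present is not given in the sources used here.

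LIF is a cytokine that acts through its receptor, gp130, JAK kinases and the transcription factor STAT3, and mouse embryonic stem cells in serum need it to stay undifferentiated. When it is removed, such cultures leave the pluripotent state and give rise to epiblast-like, mesodermal, endodermal and other cells. Lithium is known to inhibit GSK3, a kinase of the complex that degrades beta-catenin when Wnt ligands are absent. Whether the labelled dose does so was not tested. The comparison asks what LIF removal changes when lithium is present throughout.

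In lithium-treated cells, LIF removal was followed by lower RNA for most of the pluripotency network and by higher RNA for early mesoderm, mesenchymal, simple epithelial, imprinted and interferon-response genes. The largest changes are given for genes picked by a rule, not for the whole array. The rule asked for stable calls (defined below), groups that do not overlap and a mean signal of at least 100 in the higher group. Among these genes the largest rise was in Aplnr, whose product is the apelin receptor, made in early mesoderm (log2 change 6.20 ± 0.79 (SE)). It was 3.40 with 16 units added to every signal in place of setting values under 1 to 1. Inhbb, the beta B subunit of inhibin and activin, fell furthest among them (log2 change -5.21 ± 0.51 (SE), -2.96 with 16 units added). Of all 12737 genes tested, 3404 passed an adjusted p of 0.05 (26.7%), 1895 of them higher without LIF (14.9%) and 1509 lower (11.8%). In 5084 genes (39.9%) the 3 arrays of one group all lay above the 3 of the other, and 3060 of these also passed the test. The call held without the replicate block and without each lithium array in turn for 1534 genes, 894 higher and 640 lower. These are called stable here.

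Counted by probe set, the array's unit of measurement, 5938 of 27022 passed, of which 3455 were higher and 2483 lower, and 2602 changed at least 2-fold. The block treats replicate numbers 1 to 3 as pairs, and without it 3368 probe sets passed (2035 higher, 1333 lower). Leaving out LIF plus lithium replicate 2 or 3, or LIF-free plus lithium replicate 2, left 3789, 3864 and 3410. The balance of directions depended on scaling. Of the called probe sets 58.2% were higher on the authors' scale, against 49.1% after quantile normalisation and 23.2% after centring each array on its median (1295 higher, 4278 lower). The median change over all tested probe sets was 0.11, -0.02 and -0.23 on those 3 scales, so small changes have no settled direction.

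The arrays are described by a few measures that differed between the groups. The median signal was 10.5 to 16 with LIF and 12.4 to 19.3 without LIF, and 9.70% to 12.8% against 4.94% to 11.3% of values lay under 1. The 3'/5' signal ratio of the Gapdh control probes, a sign of RNA integrity, was 0.798 to 0.860 with LIF and 0.748 to 0.802 without LIF. The 18S ribosomal RNA control read 95.2 to 713 with LIF and 374 to 1632 without LIF. The part of these differences in the results was not tested. Of the embryonic stem cell markers Pou5f1, Sox2, Nanog, Zfp42, Dppa5a and Utf1, the lowest value on the 6 arrays was that of Utf1, a chromatin factor of these cells, at 209.7 units on LIF-free plus lithium replicate 1. In bulk RNA, fewer cells of a type and less RNA per cell cannot be told apart.

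**Figure D1:**
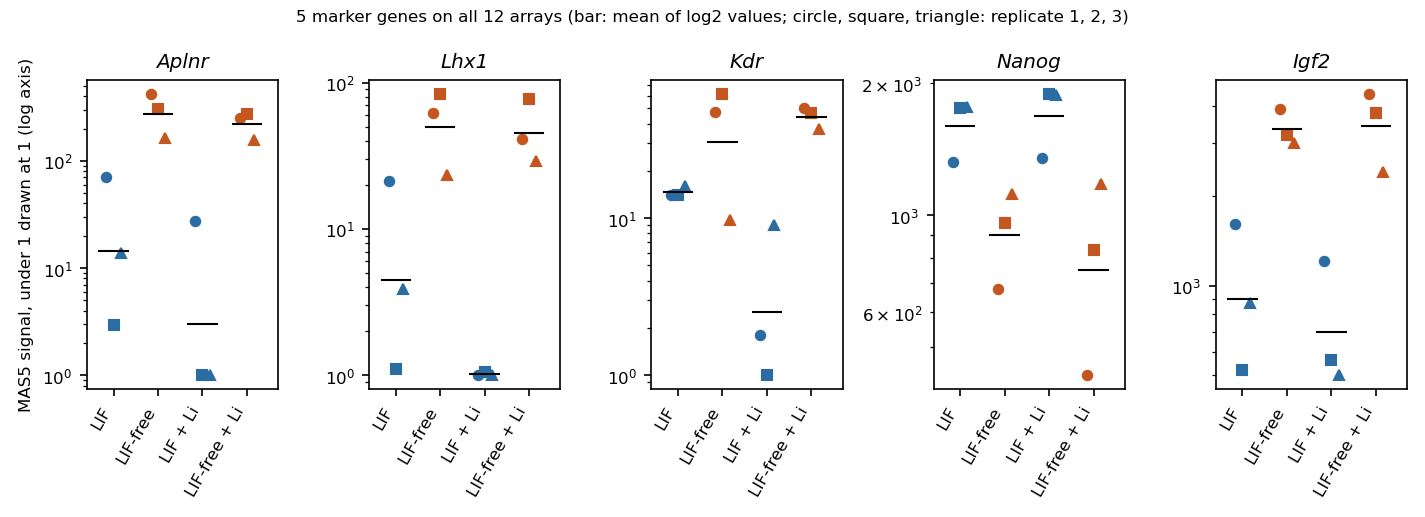
Signal of Aplnr, Lhx1, Kdr, Nanog and Igf2 (log axis, MAS5 units) on each of the 12 arrays, by culture condition; every point is 1 array, values under 1 are drawn at 1, bars are means of log2 values and shapes mark replicates 1 to 3. In the presence of lithium, all 3 LIF-free arrays lie above the LIF arrays for Aplnr, Lhx1, Kdr and Igf2 and below them for Nanog.

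The 5 marker genes given with the comparison are described first. Signals are given in the order of replicates 1 to 3 and in MAS5 units throughout. Aplnr read 27.3, 0.453 and 0.137 with LIF and 250.4, 276 and 156 without LIF (log2 change 6.20 ± 0.79 (SE), 3.40 with 16 units added, adjusted p = 0.000141). Lhx1, a homeobox factor of the gastrulating mesoderm and node, read 0.901, 1.06 and 0.375 with LIF and 41, 77.2 and 28.9 without LIF (log2 change 5.47 ± 0.80 (SE), 1.89 with 16 units added, adjusted p = 0.000369). Both were at or near the lower limit on most LIF arrays and well above it on every LIF-free array. Values under 1 were set to 1 before logs were taken, so the sizes of changes from such low signals rest partly on that floor. Where adding 16 units in place of the floor makes a called change smaller by over 1.5 times, the smaller value is given where its p is first printed. Kdr encodes VEGF receptor 2, which marks vascular and cardiac progenitors, and its signal was 1.79, 0.68 and 9.02 with LIF and 50.4, 46.6 and 36.7 without LIF (log2 change 4.13 ± 0.76 (SE), 1.63 with 16 units added, adjusted p = 0.00174). Igf2, an imprinted growth factor abundant in mesoderm and extraembryonic tissue, read 1206, 564 and 500.4 with LIF and 4404, 3785 and 2410.2 without LIF (log2 change 2.29 ± 0.23 (SE), adjusted p = 2.86e-05). Its groups were apart too. Nanog, a core pluripotency factor, read 1352, 1895 and 1878 with LIF and 431, 833 and 1181 without LIF (log2 change -1.17 ± 0.16 (SE), adjusted p = 0.000249). It fell without being lost, and the lowest LIF array lay above the highest LIF-free array.

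Without lithium, the same markers read as follows. Aplnr was 70.6, 2.96 and 13.9 with LIF and 424, 304 and 163 without it. Lhx1 was 21.3, 1.1 and 3.86 with LIF and 61.8, 84.1 and 23.4 without it. Kdr was 14, 14.1 and 16 with LIF and 47.3, 62.1 and 9.71 without it, so that LIF-free replicate 3 lay below the LIF arrays. For Aplnr and Lhx1 the LIF-free arrays lay above the LIF arrays in that setting as well. Nanog was 1326, 1756 and 1762 against 679, 958 and 1120.2, and Igf2 was 1606, 521 and 874 against 3899.7, 3201 and 3007, both without overlap.

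**Figure D2:**
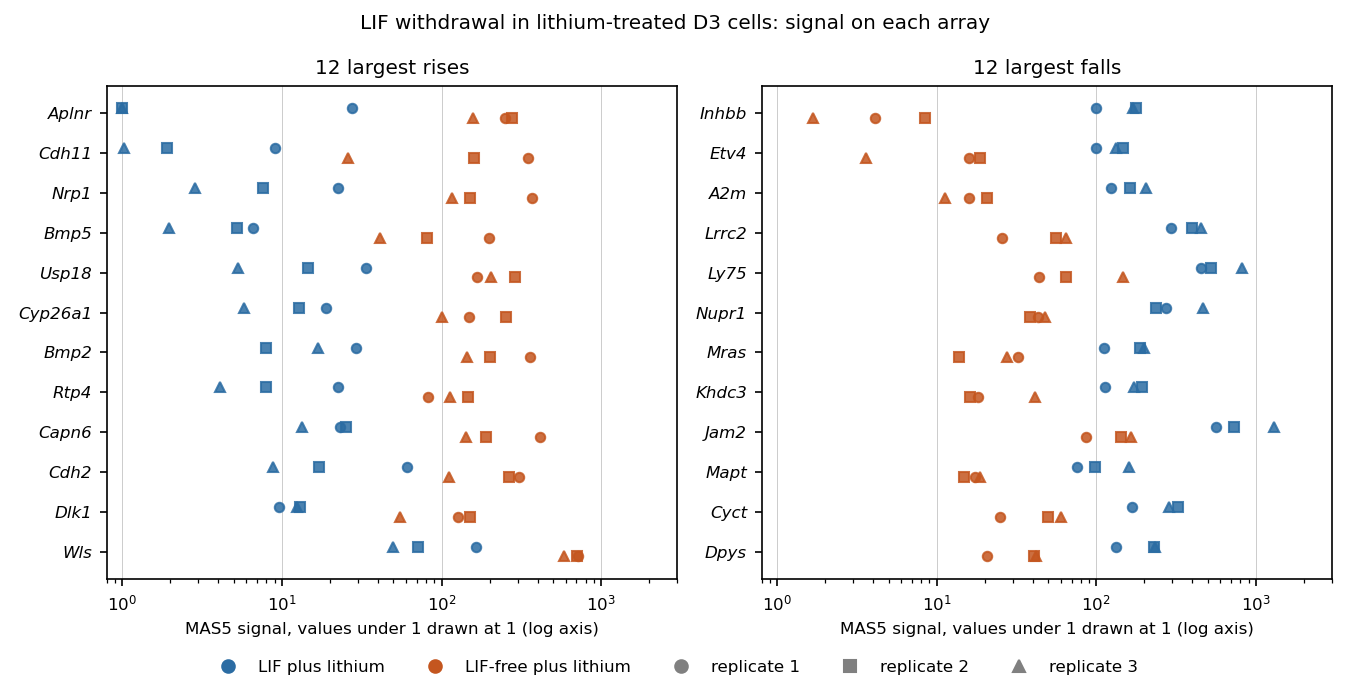
Signal on each of the 6 lithium arrays (log axis, MAS5 units, values under 1 drawn at 1) for the 12 largest rises and 12 largest falls named; each point is 1 array, blue with LIF and orange without it, with shapes for replicates 1 to 3. The genes are ordered by log2 change from Aplnr (6.20) and Inhbb (-5.21) down, and the rule that chose them asked for groups that do not overlap.

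Among the largest rises, Cdh11, a cadherin of mesenchymal cells, read 9, 1.9 and 1.02 with LIF and 348, 159 and 25.9 without LIF (log2 change 5.44 ± 0.53 (SE), 2.82 with 16 units added, adjusted p = 2.1e-05). Its LIF-free arrays spanned a wide range, yet all lay above the LIF arrays. Nrp1, neuropilin-1, a receptor for semaphorins and VEGF, read 22.4, 7.58 and 2.84 with LIF and 367, 149.96 and 117 without LIF (log2 change 4.57 ± 0.29 (SE), 2.98 with 16 units added, adjusted p = 1.27e-06). Bmp2, a BMP ligand of the early embryo, read 29.3, 8.01 and 16.8 with LIF and 359.6, 199.9 and 145 without LIF (log2 change 3.79 ± 0.42 (SE), adjusted p = 5.11e-05). Bmp5, another BMP ligand, rose by 4.42 ± 0.75 (2.37 with 16 units added). Groups that do not overlap were a condition for naming the genes of this paragraph. Wls, the carrier protein needed for Wnt secretion, read 165, 71.5 and 49.8 with LIF and 721, 709 and 589 without LIF (log2 change 3.00 ± 0.35 (SE), adjusted p = 6.74e-05). Cyp26a1, the enzyme that breaks down retinoic acid, read 18.9, 12.8 and 5.8 with LIF and 149, 252 and 101 without LIF (log2 change 3.80 ± 0.36 (SE), adjusted p = 1.85e-05). The other members of the group were Usp18 (3.96), a protease that removes ISG15, Rtp4 (3.62), a receptor transporter induced by interferon, and Cdh2 (3.31), N-cadherin. Capn6 (3.50), a calpain family member, and the imprinted Notch-family ligand Dlk1 (3.14) completed it.

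Among the largest falls, Inhbb read 99, 177 and 169.7 with LIF and 4.14, 8.49 and 1.69 without LIF (log2 change -5.21 ± 0.51 (SE), -2.96 with 16 units added, adjusted p = 2.37e-05). Every LIF-free array was below 10 units and every LIF array was near or above 100 units. Etv4, an ETS factor switched on by FGF and ERK signalling, read 99.2, 147 and 133 with LIF and 15.9, 18.8 and 3.62 without LIF (log2 change -3.60 ± 0.57 (SE), -2.33 with 16 units added, adjusted p = 0.000611). Nupr1, a small stress-induced nuclear protein, read 273, 237 and 466 with LIF and 42.9, 38.6 and 47.5 without LIF (log2 change -2.86 ± 0.21 (SE), adjusted p = 4.83e-06). As for the rises, groups that do not overlap were a condition for choosing them. Jam2, a junctional adhesion molecule, read 563, 731 and 1299.5 with LIF and 86.6, 143 and 166 without LIF (log2 change -2.68 ± 0.14 (SE), adjusted p = 4.1e-07). Ly75, the endocytic receptor DEC-205, fell by 2.96 ± 0.26, and Lrrc2, a leucine-rich repeat protein, by 3.06 ± 0.17. Khdc3, a protein of the egg and early embryo, fell by 2.77 ± 0.24. The remaining falls were those of A2m (-3.37), a protease inhibitor, Mras (-2.81), a Ras-family GTPase, and Mapt (-2.64), the microtubule protein tau. Cyct (-2.57), the testis form of cytochrome c, and Dpys (-2.55), a pyrimidine-degrading enzyme, came last.

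**Figure D3:**
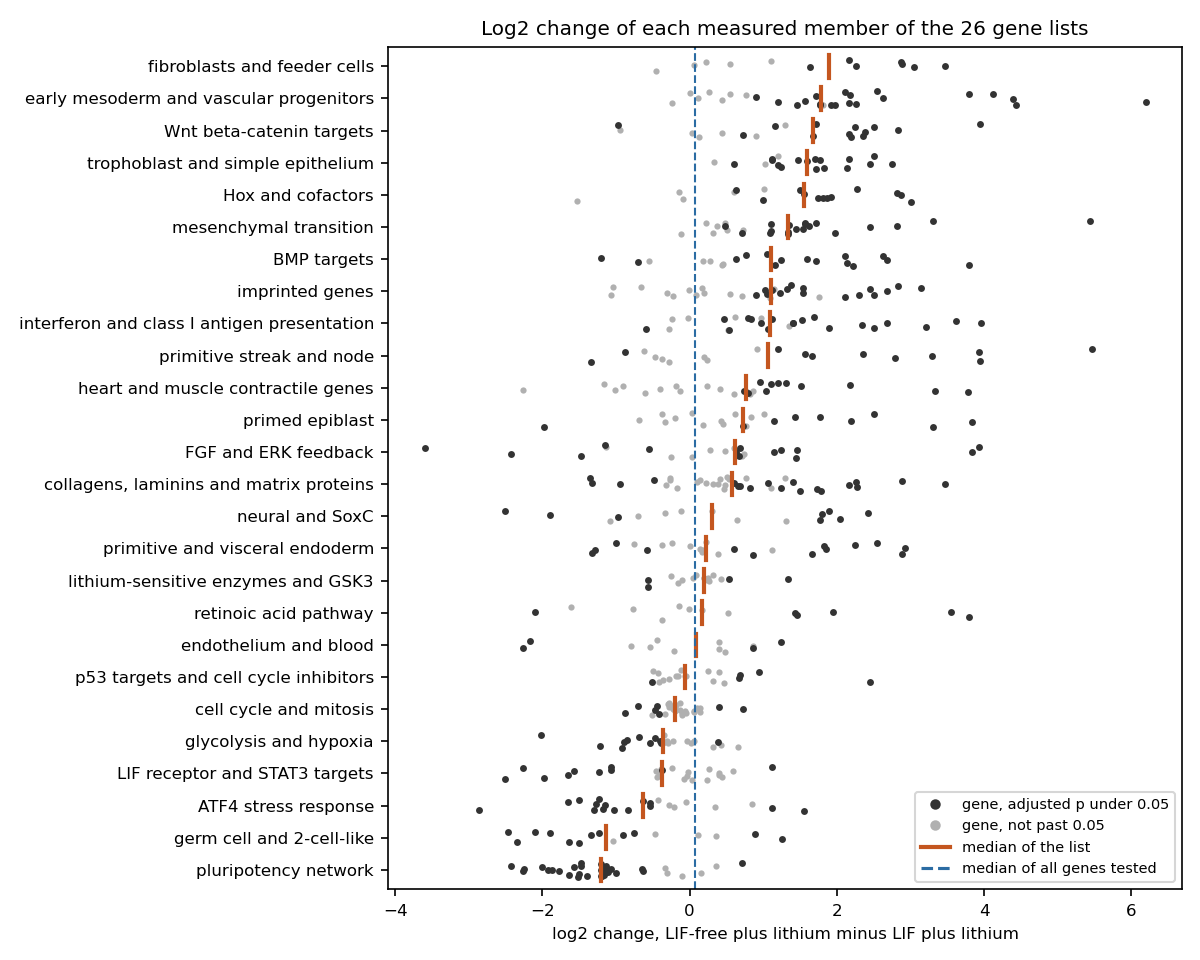
Log2 change on LIF withdrawal in lithium of each measured gene of the 26 lists, which are ordered by their median (orange bar); black points passed an adjusted p of 0.05, grey points did not, and the dashed line is the median of all genes (0.07). The pluripotency list lies lowest (median -1.20), and the lists of fibroblast markers (1.90) and early mesoderm (1.79) lie highest.

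For each list, the counts stand beside 14.9% of all genes called higher and 11.8% called lower. The pluripotency network was the list with the most falls. It had 27 falls, 1 rise and 5 members without a call among 33 measured, against 11.8% of all genes lower, and the median change was -1.20 against 0.07 over all genes. Klf4, a STAT3-responsive factor of naive cells, read 1302, 1596 and 1947 with LIF and 261, 368 and 379 without LIF (log2 change -2.27 ± 0.11 (SE), adjusted p = 3.88e-07). Pou5f1, which encodes Oct4, read 1759.8, 2071 and 2415 with LIF and 509, 719.7 and 1014 without LIF (log2 change -1.52 ± 0.15 (SE), adjusted p = 2.1e-05), and Sox2, its partner, fell by 1.11 ± 0.16. Both core factors were still above 500 units on every LIF-free array. Fgf4, a growth factor of pluripotent cells, read 443, 785 and 779.7 with LIF and 59.1, 168 and 177 without LIF (log2 change -2.42 ± 0.15 (SE), adjusted p = 1.23e-06). Tdgf1, a Nodal co-receptor, fell by 1.93 ± 0.15, Eras, a Ras-family GTPase of these cells, by 1.78 ± 0.14, and Esrrb, a nuclear receptor of naive cells, by 1.88 ± 0.18. Zfp42 (Rex1), a naive-state marker, fell by 1.39 ± 0.15. Lin28a, an RNA-binding protein that blocks let-7 processing, was the member that rose (log2 change 0.71 ± 0.18 (SE), adjusted p = 0.0125), and its call was lost in 3 of the 6 leave-outs (adjusted p up to 0.0833, without LIF plus lithium replicate 3). The members that did not pass were Zscan10 (-0.33), Mycn (-0.31), Dppa5a (-0.10), Sall4 (0.15) and Dppa3 (0.35). The drop was thus uneven among members, from -2.42 to -0.65 among the stable falls.

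Genes of the LIF receptor and STAT3 pathway were called lower in 9 of 25 measured members and higher in 1, and 15 failed the test (median -0.38). The falls numbered 7 without the block and 14 after median centring. Lifr, the LIF receptor, read 507, 395 and 357 with LIF and 433, 319 and 237 without LIF (log2 change -0.38 ± 0.12 (SE), adjusted p = 0.0402), and its call was lost in 6 of the 6 leave-outs (adjusted p up to 0.191, without LIF plus lithium replicate 3). Its partner Il6st (gp130) had a change of -0.08, the kinase Jak1 -0.03 and Stat3 itself -0.02, none of which passed. Socs3, the feedback inhibitor induced by STAT3, read 219, 264 and 273 with LIF and 85.5, 77.4 and 77.1 without LIF (log2 change -1.65 ± 0.23 (SE), adjusted p = 0.000268). Its LIF-free arrays were close to each other and far below the LIF arrays. Icam1, an adhesion molecule, read 282, 493 and 489 with LIF and 64.2, 117 and 146 without LIF (log2 change -1.99 ± 0.17 (SE), adjusted p = 8.98e-06). Gbx2, a homeobox factor downstream of STAT3, fell by 2.51 ± 0.35, and Tfcp2l1, another transcription factor downstream of STAT3, by 1.57 ± 0.16. Cebpb, a C/EBP transcription factor, was the member that rose (log2 change 1.11 ± 0.30 (SE), adjusted p = 0.0162), a call lost in 3 of the 6 leave-outs (adjusted p up to 0.104, without LIF plus lithium replicate 3).

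The Icam1 promoter is shown because it alone among the pathway's members held the STAT motif searched, TTCCNGGAA, on either strand within 250 bases before the start site. The RefSeq promoter table (GRCm38.p6) covered 19 of the 25 members, and 1.09% of the 27025 genes of that table hold the motif in a promoter. The match, in capitals, begins 42 bases before the start, and the sequence is 9:21015690-21015939 on the plus strand. A match describes letters and shows no binding.
Icam1: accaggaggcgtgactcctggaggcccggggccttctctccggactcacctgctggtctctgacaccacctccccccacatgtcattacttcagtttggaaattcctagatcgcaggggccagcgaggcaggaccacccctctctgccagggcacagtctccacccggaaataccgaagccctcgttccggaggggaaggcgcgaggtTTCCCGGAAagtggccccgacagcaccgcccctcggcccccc

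Markers of the primed, post-implantation epiblast mostly did not pass or rose. There were 8 rises, 1 fall and 12 genes without a call among 21 measured, with a median of 0.72. Without the block 5 rose, and without LIF-free plus lithium replicate 3 there were 2 falls. Fgf5, the classical marker of that stage, read 27.2, 11.2 and 0.737 with LIF and 54.6, 108 and 150.5 without LIF (log2 change 3.83 ± 0.94 (SE), 2.07 with 16 units added, adjusted p = 0.00998), and its call was lost in 2 of the 6 leave-outs (adjusted p up to 0.0678, without LIF plus lithium replicate 3). Dkk1, a secreted Wnt inhibitor, read 41.5, 25.9 and 42 with LIF and 266, 179 and 173 without LIF (log2 change 2.50 ± 0.32 (SE), adjusted p = 0.000139). Sox4, a SoxC factor, rose by 1.77 ± 0.21 and Cdh2 by 3.31 ± 0.35. Tcf15, a bHLH factor that primes differentiation, was the member that fell (log2 change -1.98 ± 0.17 (SE), adjusted p = 9.85e-06). Otx2 (0.18) and Pou3f1 (0.76), both factors of the primed state, did not pass.

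Primitive streak and node genes rose in 9 of 18 measured members, fell in 2 and did not pass in 7 (median 1.06). The number that rose was 5 without the block and 4 without LIF-free plus lithium replicate 2. Fgf8, a growth factor of the streak, read 18, 0.45 and 0.254 with LIF and 28.8, 54.8 and 40.05 without LIF (log2 change 3.93 ± 0.78 (SE), 1.43 with 16 units added, adjusted p = 0.00294). Foxa2, a factor of node and definitive endoderm, read 12.6, 18.4 and 19 with LIF and 44.1, 62.5 and 50.7 without LIF (log2 change 1.66 ± 0.28 (SE), 1.06 with 16 units added, adjusted p = 0.000895). Each gene had its LIF-free arrays above the others. Mixl1, a homeobox factor of the streak, read 18.8, 2.08 and 1.98 with LIF and 24.7, 150.2 and 19.8 without LIF (log2 change 3.30 ± 0.99 (SE), 1.47 with 16 units added, adjusted p = 0.0288), with the highest value on LIF-free plus lithium replicate 2. Its call was lost without the block (adjusted p = 0.0785) and in 4 of the 6 leave-outs (adjusted p up to 0.191, without LIF-free plus lithium replicate 2). Eomes, a T-box factor of streak and trophoblast, behaved likewise in the test: it rose by 1.20 ± 0.36, with adjusted p = 0.0794 without the block and 0.0768 after median centring, and was lost in 3 of the 6 leave-outs (adjusted p up to 0.165, without LIF-free plus lithium replicate 2). The falls were Lefty2, a Nodal inhibitor (log2 change -1.33 ± 0.22 (SE), adjusted p = 0.000921), and Hhex, a homeobox factor of anterior endoderm (log2 change -0.88 ± 0.21 (SE), adjusted p = 0.00977), and without LIF plus lithium replicate 3 there was 1 fall. No probe set carried the symbol T (brachyury) in the annotation used, so that gene was not analysed here.

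Early mesoderm and vascular progenitor genes were called higher in 20 of 28 measured members and lower in none, where 14.9% of all genes were called higher, and the median was 1.79. The rises numbered 16 without the block and 14 to 20 over the 6 leave-outs, and 13 were stable. The summed signal of the list was 918, 769 and 783 with LIF and 3366, 2498 and 1469 without LIF. Hand2, a bHLH factor of heart and limb mesoderm, read 6.62, 0.905 and 2.12 with LIF and 139, 41.2 and 22.7 without LIF (log2 change 4.39 ± 0.42 (SE), 1.88 with 16 units added, adjusted p = 1.97e-05). Rspo3, a secreted enhancer of Wnt signalling, read 17.1, 3.23 and 1.19 with LIF and 126, 96 and 55 without LIF (log2 change 4.44 ± 0.55 (SE), 2.23 with 16 units added, adjusted p = 0.0001). Msx2, a homeobox target of BMP signalling, read 69.6, 42.1 and 39.3 with LIF and 479, 301 and 187 without LIF (log2 change 2.62 ± 0.31 (SE), adjusted p = 8.6e-05). For all 3 genes the groups were apart, and the highest value was on LIF-free plus lithium replicate 1. The stable members further included Msx1 (2.12), Snai2 (1.97), Foxc1 (1.92), Hand1 (1.76), Snai1 (1.71) and Tbx20 (1.46), transcription factors of mesoderm and its derivatives. Members that did not pass included Pdgfra (0.01), a receptor of paraxial mesoderm and primitive endoderm, and the heart factors Nkx2-5 (0.27) and Gata4 (-0.24).

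Contractile genes of heart and muscle rose in 11 of 25 measured members, with no fall and 14 that did not pass (median 0.76). After median centring 8 were higher and 3 lower, and after quantile normalisation 11 and 2. Several rises with the smallest p belonged to tropomyosins and calponins, which many non-muscle cells also make. Tpm1 read 999.9, 885 and 593 with LIF and 2068, 2242 and 2595 without LIF (log2 change 1.51 ± 0.17 (SE), adjusted p = 7e-05), Tpm4 rose by 1.03 ± 0.11 and Cnn2, a calponin of smooth muscle and other cells, by 1.19 ± 0.18. Tnnc1, troponin C of slow and cardiac muscle, read 56.6, 48.8 and 39.1 with LIF and 192, 219 and 235 without LIF (log2 change 2.17 ± 0.18 (SE), adjusted p = 8.98e-06). Myh7, the slow and fetal cardiac myosin heavy chain, read 2.66, 1.73 and 3.18 with LIF and 28.3, 52.2 and 25.5 without LIF (log2 change 3.78 ± 0.67 (SE), 1.43 with 16 units added, adjusted p = 0.00132), and the troponin I of fast muscle, Tnni2, rose by 3.34 ± 0.74. The groups of Tnnc1 and Myh7 did not overlap. Cardiac genes that did not pass were Tnnt2 (0.86), Myl7 (-1.02), Myh6 (-0.14), Actn2 (-0.91), Ryr2 (-1.16) and Tnni3 (-2.26, adjusted p = 0.0701).

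The mesenchymal transition list, which holds epithelial markers as well, rose in 19 of 26 measured members and fell in none (median 1.33; 18 rises without the block, 16 to 18 over the leave-outs). Vim, the intermediate filament vimentin, read 704, 522 and 431 with LIF and 2195, 1826 and 1161 without LIF (log2 change 1.63 ± 0.13 (SE), adjusted p = 6.61e-06). Lgals1, galectin-1, rose by 1.57 ± 0.13. Cdh2, N-cadherin, read 60.9, 17.1 and 8.81 with LIF and 304, 264 and 111 without LIF (log2 change 3.31 ± 0.35 (SE), adjusted p = 3.69e-05). No epithelial gene of the same list fell. Cdh1, E-cadherin, read 2497, 2349 and 2001 with LIF and 3383, 2939 and 3183 without LIF (log2 change 0.48 ± 0.12 (SE), adjusted p = 0.0103), a rise whose call was lost in 2 of the 6 leave-outs (adjusted p up to 0.0665, without LIF plus lithium replicate 3) and after median centring (change 0.13, adjusted p = 0.682). Dsp, the desmosome protein desmoplakin, rose by 1.54 ± 0.15, and the epithelial regulators Esrp1 and Grhl2 by 1.45 ± 0.29 and 1.10 ± 0.23.

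Among 36 matrix genes there were 15 rises and 4 falls (median 0.57), where 14.9% of all genes rose and 11.8% fell. Without the block 8 rose and 2 fell. After median centring 9 rose. Col3a1, a fibrillar collagen, read 9.07, 3.06 and 5.05 with LIF and 60.9, 33.2 and 27.5 without LIF (log2 change 2.88 ± 0.43 (SE), 1.34 with 16 units added, adjusted p = 0.000422). Col5a1, a collagen of the same fibrils, rose by 2.16 ± 0.26 and Serpinh1, the collagen chaperone, by 1.07 ± 0.13. Col1a1 read 8.1, 2.19 and 5.34 with LIF and 40.8, 18.3 and 13.9 without LIF (log2 change 2.26 ± 0.63 (SE), 0.88 with 16 units added, adjusted p = 0.0208), a call lost without the block (adjusted p = 0.119) and in 4 of the 6 leave-outs (adjusted p up to 0.107, without LIF-free plus lithium replicate 2). The falls were Lama1, a laminin chain of the early basement membrane (-1.33), Timp1, a metalloprotease inhibitor (-0.94), Nid2, nidogen-2 (-0.49), and Col5a2 (-1.35). They numbered 2 without LIF plus lithium replicate 2 and without LIF-free plus lithium replicate 2.

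Markers of fibroblasts and feeder cells rose as well. Their list shares members such as Col3a1 and Col5a1 with the matrix list, so it is no separate measurement. Of 12 measured, 7 rose and none fell (median 1.90; 4 rises without the block), and their summed signal was 277, 155 and 177 with LIF and 917, 718 and 482 without LIF. Cxcl12, a chemokine of stromal cells, read 23.3, 9.23 and 6.52 with LIF and 119.6, 92.2 and 71.9 without LIF (log2 change 3.05 ± 0.44 (SE), 1.95 with 16 units added, adjusted p = 0.000318), and Has2, a hyaluronan synthase, rose by 2.87 ± 0.27. The fibroblast surface markers Thy1 (-0.45) and Pdgfrb (0.05) did not pass, at 19.9 ± 5.22 (SD, n = 3) against 14.3 ± 2.05 and 30.8 ± 8.15 against 31.9 ± 7.62 units. The part of fibroblasts in the mesenchymal and matrix results was not tested.

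Endothelial and blood genes did not move as a group: of 12 measured, 2 rose, 2 fell and 8 did not pass (median 0.09). Over all genes, 14.9% rose and 11.8% fell. Pecam1, an adhesion molecule of endothelium that embryonic stem cells also make, read 103, 151 and 179 with LIF and 13.1, 42.8 and 45.1 without LIF (log2 change -2.26 ± 0.24 (SE), adjusted p = 3.31e-05). Vwf, von Willebrand factor, also fell, from 39.4 ± 10.8 to 8.63 ± 1.7 units (SD, n = 3; log2 change -2.17 ± 0.42 (SE), -1.15 with 16 units added, adjusted p = 0.00231). Gata2, a factor of blood and trophoblast, rose by 1.24 ± 0.25. Sox17, a factor of endoderm and endothelium, rose by 0.87 ± 0.26, but the call was lost without the block (adjusted p = 0.0555), after median centring (adjusted p = 0.153) and in 4 of the 6 leave-outs (adjusted p up to 0.14, without LIF-free plus lithium replicate 2). Cdh5, the cadherin of vessels, had a change of 0.48 and did not pass, while Kdr did.

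Endoderm genes had calls in both directions. There were 9 higher and 4 lower, with 10 of 23 genes uncalled (median 0.22), where 14.9% of all genes were higher and 11.8% lower. Without the block the numbers were 7 and 2, and the falls were 2 without LIF-free plus lithium replicate 1 or 2. Ttr, transthyretin of visceral endoderm, rose by 2.92 ± 0.47, or by 1.07 with 16 units added. Its signal was low, at 3.74 ± 2.27 units with LIF and 27.4 ± 15.4 without LIF (SD, n = 3). Cited1, a coactivator found in extraembryonic tissue, read 71.8, 57.7 and 39.5 with LIF and 264, 289 and 226 without LIF (log2 change 2.24 ± 0.19 (SE), adjusted p = 8.38e-06). Spink1, a secreted protease inhibitor, rose by 1.85 ± 0.25. Amn, the amnionless subunit of the cubilin receptor, fell by 1.29 ± 0.22, and Cubn, cubilin itself, by 1.00 ± 0.26. Gata6, a defining factor of primitive endoderm, read 84.1, 50.7 and 119.7 with LIF and 118, 103 and 60.8 without LIF and did not pass (log2 change 0.18 ± 0.32 (SE), adjusted p = 0.734), with overlapping groups. Sox7 (-0.76), another factor of that lineage, did not pass.

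Neural genes gave 5 rises, 3 falls and 7 that did not pass among 15 measured (median 0.31; 3 rises and 3 falls without the block). Sox11, a SoxC factor active in many embryonic tissues, read 192, 118 and 79.5 with LIF and 453, 536 and 312 without LIF (log2 change 1.80 ± 0.23 (SE), adjusted p = 0.000143). Stmn2, a neuronal microtubule regulator, fell by 0.98 ± 0.14. The neural progenitor genes Sox1 (-1.09), Pax6 (-0.11) and Nes (1.30) did not pass.

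Trophoblast and simple epithelial genes rose in 16 of 19 measured members and fell in none (median 1.60; 15 rises without the block). Krt8, the keratin of simple epithelia, read 2154, 1521 and 1204 with LIF and 6046, 4734 and 4758 without LIF (log2 change 1.70 ± 0.14 (SE), adjusted p = 6.73e-06), and its partner Krt18 read 2549, 1959 and 1523 with LIF and 6421, 5828 and 5616 without LIF (log2 change 1.60 ± 0.15 (SE), adjusted p = 1.36e-05). Neither keratin overlapped between conditions. Krt19, another such keratin, rose by 1.83 ± 0.20. Several members are shared with other lists, such as Cdx2, Hand1, Gata2 and the imprinted Cdkn1c and Peg10, so this list is no separate measurement. Tfap2a (1.03), Dlx3 (1.20) and Esx1 (0.32), transcription factors of trophoblast, were the members that did not pass.

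Imprinted genes, which are expressed from the copy of 1 parent, rose in 16 of 30 measured members and fell in none (median 1.10; 15 rises without the block and 15 or 16 over the leave-outs). Peg3, a paternally expressed zinc finger gene, read 567, 276 and 171 with LIF and 2864, 1903 and 1303 without LIF (log2 change 2.69 ± 0.20 (SE), adjusted p = 5.07e-06). Peg10, a retrotransposon-derived gene needed in placenta, read 28.5, 18.3 and 12.9 with LIF and 146, 120.1 and 69.3 without LIF (log2 change 2.50 ± 0.23 (SE), adjusted p = 1.58e-05). Cdkn1c, the cell cycle inhibitor p57, read 228, 114 and 93.5 with LIF and 872, 765 and 599 without LIF (log2 change 2.45 ± 0.21 (SE), adjusted p = 1e-05). These genes and Igf2 all had groups that were apart, with the LIF array of replicate 1 the highest of its group. Genes with either parental expression were among the rises, such as the paternally expressed Mest (1.54) and the maternally expressed Igf2r (1.23) and Phlda2 (1.03). Meg3 (-1.07), Kcnq1 (-1.04) and Grb10 (-0.31) did not pass.

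Targets of Wnt and beta-catenin signalling rose in 12 of 19 measured members, fell in 1 and did not pass in 6 (median 1.68). The number that rose was 9 without the block and 7 without LIF-free plus lithium replicate 2. Axin2, a feedback inhibitor and general target of the pathway, read 35.4, 22 and 14.7 with LIF and 69, 108 and 50.7 without LIF (log2 change 1.68 ± 0.29 (SE), adjusted p = 0.0011). Tnfrsf19, a receptor of the TNF family, read 46.3, 34.3 and 14.2 with LIF and 199, 206 and 196 without LIF (log2 change 2.83 ± 0.41 (SE), adjusted p = 0.000338). Each had LIF-free arrays that lay above the LIF arrays. Id2, an inhibitor of bHLH factors that is also in the BMP list, rose by 1.71 ± 0.18, and Dkk1 is described above. Sfrp1, a secreted Wnt antagonist, was the fall (log2 change -0.97 ± 0.24 (SE), adjusted p = 0.0115), and its call was lost in 3 of the 6 leave-outs (adjusted p up to 0.0819, without LIF plus lithium replicate 3). Ccnd1, cyclin D1, had a change of 0.13 and did not pass.

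The Tnfrsf19 promoter is shown as that of a target with the TCF motif ATCAAAG within 250 bases before the start. The motif, searched on both strands, was in a promoter of 3 of the 13 targets that the table covers (23.1%) and of 3.72% of all its genes. The match, in capitals, begins 202 bases before the start, and the stretch lies at 14:61037988-61038237 on the minus strand. Genes were listed as known Wnt targets and counted whether called or not. Their share therefore does not bear on LIF withdrawal, and a match shows no binding.
Tnfrsf19: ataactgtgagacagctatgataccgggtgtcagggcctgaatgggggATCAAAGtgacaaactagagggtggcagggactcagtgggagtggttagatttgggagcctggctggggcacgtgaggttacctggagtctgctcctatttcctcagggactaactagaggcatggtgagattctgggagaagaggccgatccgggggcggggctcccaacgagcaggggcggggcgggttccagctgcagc

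BMP pathway genes rose in 13 of 20 measured members and fell in 2 (median 1.11; 11 rises without the block). Among ligands, Bmp2 is given above, Bmp7 rose by 0.77 ± 0.26 and Bmp4 (0.44) did not pass. Id3, a direct target of BMP and SMAD signalling, read 129.7, 89.8 and 46 with LIF and 789, 493 and 358 without LIF (log2 change 2.67 ± 0.24 (SE), adjusted p = 1.18e-05), and Id1 rose by 1.05 ± 0.21. Inhibitors rose as well, with Bambi, a decoy receptor, at 1.17 ± 0.23 and Smad6, an inhibitory SMAD, at 1.59 ± 0.37. The falls were Tbx3 (-1.20), a T-box factor also in the pluripotency list, and Id4 (-0.70). Without LIF plus lithium replicate 2 there was 1 fall.

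FGF and ERK genes split by member: 9 of 22 rose, 5 fell and 8 did not pass (median 0.61). The rises were 5 without the block, 5 after median centring, and 5 each without LIF plus lithium replicate 2, without its replicate 3 and without LIF-free plus lithium replicate 2. Of the ligands, Fgf8 rose and Fgf4 fell, as given above. Fgfr2, an FGF receptor, read 126, 67.6 and 59.5 with LIF and 231, 229 and 191 without LIF (log2 change 1.44 ± 0.21 (SE), adjusted p = 0.000323). Pea15a, an ERK-binding protein, rose by 1.46 ± 0.18. Feedback genes fell in part: Etv4 by 3.60 ± 0.57, Etv5, its relative, by 1.15 ± 0.22 and Spry4, a Sprouty inhibitor, by 1.47 ± 0.24, while Dusp6, an ERK phosphatase, did not pass (-0.26).

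Hox genes and their cofactors rose in 12 of 17 measured members, but the count changed widely with the settings. It was 3 without the block, 7 after median centring and 6 after quantile normalisation. Without LIF plus lithium replicates 1, 2 and 3 in turn it was 5, 5 and 4, and without LIF-free plus lithium replicates 1, 2 and 3 it was 5, 3 and 10. The stable members were Meis2 (42.7, 17.9 and 14.8 with LIF and 212, 127 and 166 without LIF; log2 change 2.88 ± 0.33 (SE), adjusted p = 7.09e-05) and Pbx3 (log2 change 1.49 ± 0.18 (SE), adjusted p = 9.32e-05), both cofactors of Hox proteins, and Hoxd8 (log2 change 1.74 ± 0.33 (SE), 1.07 with 16 units added, adjusted p = 0.00218). Hoxd9 had a change of 2.82 (1.11 with 16 units added, adjusted p = 0.0108, and 0.0799 without the block).

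In the retinoic acid pathway there were 5 rises and 1 fall among 13 genes (median 0.17). Beside Cyp26a1, the rises were the receptor Rarb (3.56 ± 0.72), the binding protein Crabp2 (1.95 ± 0.23) and the retinol dehydrogenase Rdh10 (1.45 ± 0.20), with the synthesising enzyme Aldh1a2 at 1.43 ± 0.36. Stra8, a germ cell gene induced by retinoic acid, fell by 2.11 ± 0.28, and without LIF-free plus lithium replicate 1 there were 2 falls.

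Interferon-response and class I antigen presentation genes rose in 18 of 26 measured members, with 1 fall and 7 that did not pass (median 1.09). The rises were 14 without the block, 11 without LIF-free plus lithium replicate 2, and 11 after median centring, which gave 3 falls. B2m, the light chain of class I molecules, read 536, 478 and 571 with LIF and 1158, 1529 and 1529 without LIF (log2 change 1.40 ± 0.17 (SE), adjusted p = 0.000105). H2-K1, a class I heavy chain, read 238, 219.9 and 207 with LIF and 395, 516 and 481 without LIF (log2 change 1.06 ± 0.15 (SE), adjusted p = 0.000329), and Tapbp, which loads peptide onto it, rose by 1.69 ± 0.23. Class I heavy chains are alike in sequence, so probe sets of H2-K1 may also read its relatives. Gbp2, a GTPase induced by interferon, read 178, 109 and 65.9 with LIF and 469.5, 622 and 791 without LIF (log2 change 2.50 ± 0.35 (SE), adjusted p = 0.000249). Usp18 read 33.9, 14.6 and 5.31 with LIF and 168, 290.1 and 203 without LIF (log2 change 3.96 ± 0.66 (SE), adjusted p = 0.000921) and Rtp4 22.5, 7.9 and 4.07 with LIF and 81.8, 146 and 113 without LIF (log2 change 3.62 ± 0.80 (SE), 2.26 with 16 units added, adjusted p = 0.00573). The LIF-free arrays lay above the LIF arrays for all 5 genes with values shown here. For Usp18 and Rtp4 this was a condition of their naming among the largest rises. The others were picked for a small p, and 39.9% of all genes had groups that did not overlap. Ifitm2, a membrane protein that restricts viruses, was the fall (-0.60), a call lost without the block and in 5 of the 6 leave-outs (adjusted p up to 0.181, without LIF-free plus lithium replicate 3).

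The B2m and Gbp2 promoters are shown because they hold the interferon-stimulated response element core, read here as GAAA, any 2 bases and GAAA again. It was found on either strand in a promoter of 8 of the 23 genes of this list in the table (34.8%), against 3.46% of all its genes. The B2m match, in capitals, begins 139 bases before the start in 2:122147437-122147686 and the Gbp2 match 59 bases before the start in 3:142620413-142620662, both on the plus strand. The Gbp2 match reads on the opposite strand, so its capitals show the reverse complement. Members were listed as known interferon-response or class I genes and counted whether called or not. The share therefore does not bear on LIF withdrawal, and a match shows no binding.
B2m: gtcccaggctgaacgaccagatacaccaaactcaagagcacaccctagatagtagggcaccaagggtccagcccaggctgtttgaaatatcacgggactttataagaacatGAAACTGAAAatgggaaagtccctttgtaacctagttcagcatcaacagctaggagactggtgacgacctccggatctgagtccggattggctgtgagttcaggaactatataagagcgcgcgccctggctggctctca
Gbp2: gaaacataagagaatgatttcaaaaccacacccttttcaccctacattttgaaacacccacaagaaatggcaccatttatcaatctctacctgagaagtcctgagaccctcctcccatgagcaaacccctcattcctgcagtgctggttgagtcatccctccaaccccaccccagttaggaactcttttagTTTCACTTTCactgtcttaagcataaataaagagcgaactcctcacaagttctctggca

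**Figure D4:**
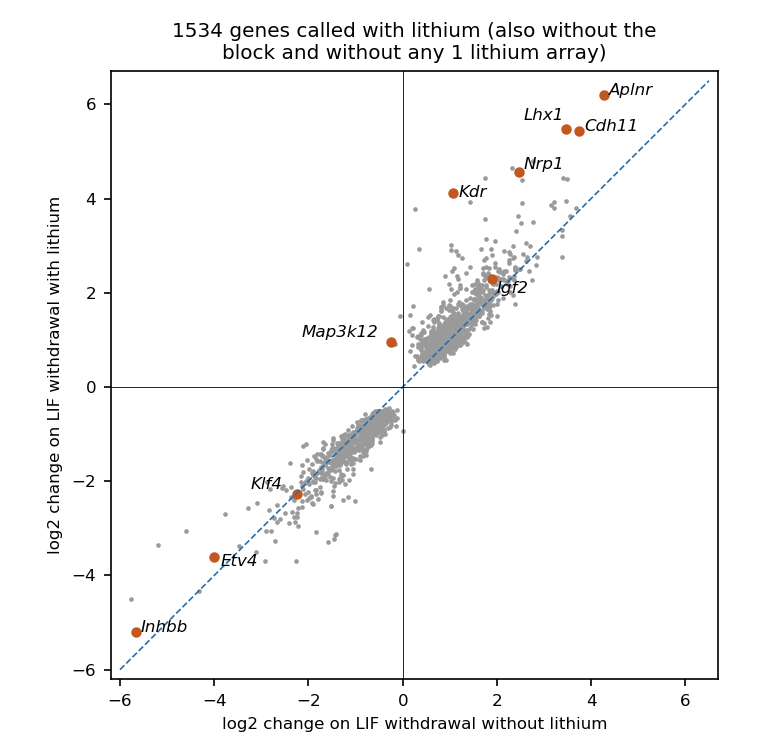
Log2 change on LIF withdrawal without lithium (x axis) and with lithium (y axis) for the 1534 stable genes, with the line of equality dashed and some named genes in orange. These genes were chosen on the y axis value, which favours larger values there; 1530 have the same sign on both axes.

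The same withdrawal was then set beside that in cells without lithium, and the difference between both changes was tested as an interaction in the same fit. No probe set passed (0 of 27022, and 0% of genes called), with a smallest adjusted p of 0.806. At an unadjusted p under 0.05 there were 1604 probe sets, or 5.94%. The median half-width of the 95% interval of the difference was 0.72, before any adjustment for the number of tests. Differences below that size were often not detectable here, and some well above it failed as well. That of Nrp1, at 2.10 ± 0.41 (SE), is an example given below. Of the 5938 probe sets called with lithium, 5748 changed in the same direction without lithium and 190 in the opposite one. No change is therefore called particular to lithium-treated cells.

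The genes with the smallest interaction p are given as values that failed the adjustment. Nrp1 rose by 4.57 ± 0.29 with lithium and had a change of 2.47 ± 0.29 without it (difference 2.10 ± 0.41, unadjusted limma p 0.000152, adjusted p = 0.806). Map3k12, a kinase of the JNK pathway, had changes of 0.95 and -0.25. Gpr3, a receptor that raises cyclic AMP, had 1.62 and -2.40, 8430426J06Rik 0.38 and -2.24, and Pou5f2, a POU factor, 1.92 and -1.63. Signals of Gpr3, 8430426J06Rik and Pou5f2 were low, and their lithium changes were 0.67, 0.22 and 0.81 with 16 units added. Of the 5 marker genes, Kdr had the widest gap, at 4.13 with lithium and 1.06 without it (difference 3.07 ± 1.08, unadjusted limma p 0.0131, adjusted p = 0.806). Its mean signals with and without LIF were 3.83 and 44.6 units in lithium, and 14.7 and 39.7 in cells without lithium. Aplnr differed by 1.93 ± 1.12 and Lhx1 by 2.0 ± 1.14, and neither passed. With 16 units added, the lithium changes of Kdr, Aplnr and Lhx1 were 1.63, 3.40 and 1.89. These gaps therefore rest partly on signals near the floor.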

How the data were processed

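Affymetrix mouse expression arrays of D3 embryonic stem cells, 12 in all, were read from the deposited series table. The values are MAS5 signal intensities on a linear scale that the authors made and deposited, with MAS5 named per the submitters' processing notes and no version or settings given in the sources used here. After 64 control probe sets were left out of 45101, values under 1 were set to 1 (0.146% of those tested) and converted to log2. Testing was limited to probe sets whose mean log2 value lay above the 40th percentile (signal 7.52), 27022 in all. Symbols came from the platform annotation: 34945 probe sets had 1 symbol, 932 several and 9160 none, and of 34754 matched by gene ID 0 had changed. A gene is its brightest kept probe set. Of 6042 genes covered by 2 or more of these, 15 had sets called in opposite directions.

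All 12 arrays entered one limma 3.58.1 model (R 4.3.3) with a mean per condition and the replicate number as a block (eBayes with trend, 6 residual degrees of freedom, two-sided, Benjamini-Hochberg over 27022 probe sets, threshold 0.05). The median half-width of the 95% interval of a change was 0.51. The number of arrays limits this precision. With 3 arrays a group, an exact permutation test could not go below p = 0.1, or 0.25 for 3 pairs.

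The block was kept because the comparison is defined with numbers as pairs. Same-numbered lithium arrays deviated from their group means with correlations of 0.451, 0.0972 and 0.379 for replicates 1, 2 and 3, and the second is just under the 0.1 taken as a sign of pairing. The labels do not say what a number shares.

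The comparison, its 26 gene lists and its named genes were chosen with earlier results of these data known. Named genes were the 12 largest rises and 12 largest falls among 1155 stable genes whose groups did not overlap and whose mean signal in the higher group was at least 100 (15 symbols of clone type passed over), up to 4 members of each list with the smallest p, stable ones first, a set list of markers, and the 5 smallest interaction p. Other genes were named after their values were seen. Alternatives covered the block, the arrays used, scaling, floor, filter, trend, array weights and the choice of probe set. The fit was tested on simulated data. Promoter sequences are from RefSeq (GRCm38.p6). Figures were drawn with matplotlib 3.10.9.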

Additional observations from a re-analysis of the deposited data

How the results depend on the processing

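Without the replicate block 3368 probe sets passed in place of 5938 (2035 higher and 1333 lower, in place of 3455 and 2483), all of them among those called with it. The pairing that the block assumes rests on the comparison's definition. The second pair deviated together only at 0.0972, and LIF plus lithium replicate 2 correlated best with LIF-free plus lithium replicate 3 (0.135). Of 125 named genes measured, 12 lost the call without the block and 8 after median centring. Many of these genes were picked for keeping the call without the block, so the first number does not describe other genes. Centring each array on its median gave 1295 higher and 4278 lower probe sets, and 9 called probe sets changed sign. With 1 array left out, the count ranged from 3410 to 5048, the higher ones from 1892 to 2828 and the lower ones from 1518 to 2220. Lower calls also fell by over 1.5 times without LIF plus lithium replicate 1 (1632). The count was 6693 on the lithium arrays alone, 8089 with array weights, 6181 with 16 units added, 5759 after quantile normalisation, 5006 without a filter, 5406 with a filter at the 60th percentile and 4588 without the trend. The interaction, which the lithium arrays alone cannot give, had 0 calls in the other settings named here and with each of the 12 arrays left out. Changes from signals near 7.52 rest on values close to background.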

Other observations

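Germ cell and early-cleavage genes were mostly lower without LIF in lithium: 10 of 16 measured fell, 2 rose and 4 did not pass (median -1.14). Over all genes, 11.8% fell and 14.9% rose. Mael, a protein of the piRNA pathway, read 68.5, 154 and 197 with LIF and 16.3, 31.2 and 31.5 without LIF (log2 change -2.34 ± 0.19 (SE), adjusted p = 6.61e-06). Ddx4, the germ cell helicase Vasa, fell by 1.64 ± 0.19, and Tex19.1, expressed in germ cells and embryonic stem cells, by 1.24 ± 0.18. The rises were the X-linked homeobox genes Rhox6 (1.26) and Rhox9 (0.88), and without the block there was none. They were 1 each without LIF plus lithium replicate 2, without its replicate 3, without LIF-free plus lithium replicate 2 and without its replicate 3.

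Genes of the ATF4 stress response fell in 13 of 21 measured members and rose in 2, against 11.8% and 14.9% of all genes. The median was -0.64, and there were 12 falls without the block. Psat1, an enzyme of serine synthesis, read 1288, 1462 and 1508 with LIF and 398, 575 and 401 without LIF (log2 change -1.65 ± 0.13 (SE), adjusted p = 5.28e-06), and its groups were apart. Mthfd2, a mitochondrial folate enzyme, fell by 1.27 ± 0.13 and Psph, the last enzyme of serine synthesis, by 1.14 ± 0.12. Atf3 (1.55) and Cebpb (1.11) were the rises, and there was 1 rise without LIF plus lithium replicate 3 or without LIF-free plus lithium replicate 1 or 2.

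In glycolysis and hypoxia genes 10 of 23 fell and 1 rose (median -0.36), where 11.8% of all genes fell and 14.9% rose. The falls were 5 without the block, 15 after median centring, and 6 without LIF plus lithium replicate 1, without its replicate 2 or without LIF-free plus lithium replicate 1. Pfkp, a phosphofructokinase, fell by 2.02 ± 0.19 and Hk2, a hexokinase, by 0.92 ± 0.13. Slc2a1, a glucose transporter, was the rise (0.38; adjusted p = 0.0521 without the block).

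Shares over all genes, for each list of this paragraph, were 14.9% higher and 11.8% lower. Cell cycle genes mostly did not pass: 5 of 29 fell, 2 rose and 22 did not (median -0.20). Neither rise was called without the block or after median centring. The falls were 2 without the block, 10 after median centring and 2 or 3 with any 1 lithium array left out. Ccne1, cyclin E1, fell by 0.88 ± 0.14 and Mcm3, of the replicative helicase, by 0.70 ± 0.12. Of 19 p53 targets and cell cycle inhibitors 4 rose and 1 fell, with 2 rises and no fall without the block, 1 rise and 3 falls after median centring, and 2 or 3 rises with any 1 lithium array left out. Perp, a p63 and p53 target, rose by 0.95 ± 0.14, a call lost after median centring (0.60, adjusted p = 0.076), while Cdkn1a, p21, did not pass (-0.06). Among 16 lithium-sensitive enzymes and GSK3 pathway genes 2 rose and 2 fell, and 1 each did so without the block. Gsk3b, the beta form of GSK3, read 205, 174 and 99 with LIF and 374, 462 and 333 without LIF (log2 change 1.34 ± 0.19 (SE), adjusted p = 0.000244). Gsk3a, the alpha form, did not pass (0.20). The other rise, Tcf7l1 (0.53), and the falls Pgm1 (-0.57) and Pgm2 (-0.56) were not stable.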
